A study of Drosophila melanogaster with 24 samples.

Results

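The passage from the late embryo to the feeding larva was compared in Drosophila melanogaster that lack their own Manf gene. MANF is a small secreted protein of the endoplasmic reticulum, known as a neurotrophic factor that supports dopamine neurites, and its loss in flies is lethal early in life. Whole animals were profiled on single-colour readings of Agilent gene expression arrays. The 8 samples taken by group label were 4 of mz mutant embryos and 4 of mutant larvae, of 24 in the series, and all probes were used. The 8 wild type samples (4 of embryos, 4 of larvae) served for comparison.

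The mz mutant embryos carried the Manf delta96 deletion and lacked both the maternal and the zygotic product. They were collected at late stage 17, 21 to 24 h after egg laying. The mutant larvae were homozygous for the same deletion but zygotic mutants only, so their mothers had supplied Manf product to the egg. Larvae 2 and 4 were taken at 29 to 50 h and 31 to 50 h, and larvae 65 and 66 at 30 to 44 h. Wild type animals came from a cross of w1118 and w- flies, with embryos at late stage 17 and larvae at 29 to 44 h or 30 to 45 h. The study lists a heat shock Flp and FRT Manf genotype and a balanced Manf stock, and embryos and larvae were picked by phenotype. It reports that the mz mutants do not fill their tracheae with air and do not hatch. The mutant larvae can live to about the second instar. The larvae are therefore not a later stage of these same animals: a stage difference between the mutant groups cannot be told apart from the difference in maternal product or in the cross.

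At this point of the life cycle the wild type embryo has completed its organs and cuticle and then hatches, begins to feed and grows. Larval growth rests mostly on cells that replicate their DNA without dividing, on food breakdown in the gut and on a cuticle that is replaced at each moult under the control of ecdysone. Neuroblasts and imaginal cells, quiet in the late embryo, take up division again in the fed larva. In whole animals, fewer cells of a type and less RNA per cell cannot be told apart.

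Levels are log2 signals on which 25% of all values lie below 7.05, the middle one is 9.15 and 25% lie above 11.74. Values of single samples are given below in a fixed order, for the mz mutant embryos as 1, 4, 87 and 88 and for the mutant larvae as 2, 4, 65 and 66. Wild type embryos follow as 1, 2, 82 and 83 and wild type larvae as 1, 2, 63 and 65. In each group the 2 low numbers and the 2 high numbers form separate number series, and among the mutants the low series was labelled with Alexa488 and the high series with Cy5. Dye and number series therefore coincided in the mutants but were balanced between their stages. Most samples had a highest value at which many probes were tied, with 640 probes in mutant larva 65, 1039 in mutant larva 66 and 1576 in wild type embryo 83, while mz mutant embryo 1 and mutant larvae 2 and 4 had 1 probe there and no tie. Changes of genes at that ceiling are lower limits, as are changes to or from a level near 7.

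Manf itself did not follow the labels cleanly. Its brighter probe read 11.29, 10.12, 9.48 and 9.14 in the mz mutant embryos and 10.67, 10.46, 12.48 and 13.50 in the mutant larvae, against 11.10, 11.28, 11.48 and 11.25 and 11.65, 11.59, 13.18 and 13.64 in wild type embryos and larvae. Mz mutant embryo 1 lay within the wild type embryos' range and the other 3 below it. Larvae 65 and 66 lay within the range of all wild type larvae and larvae 2 and 4 below it. The wild type larvae differed by number series too. Within the high series, larva 65 (12.48) lay below both wild type larvae and larva 66 (13.50) between them. The change from mz mutant embryos to mutant larvae was 1.77 ± 0.66 (SE, adjusted p = 0.0654), and the other probe of the gene gave 1.79 ± 0.59 (SE, adjusted p = 0.0365). The change went to -0.14 within the low series. Where the probes lie relative to the deleted stretch is not known here, so its signal does not tell whether the transcript is intact. Over all probes, mz mutant embryo 1 correlated best with wild type embryo 2 (r = 0.985) and only at 0.963 to 0.972 with the other mz mutants, so each main result below was also computed without it.

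**Figure D1:**
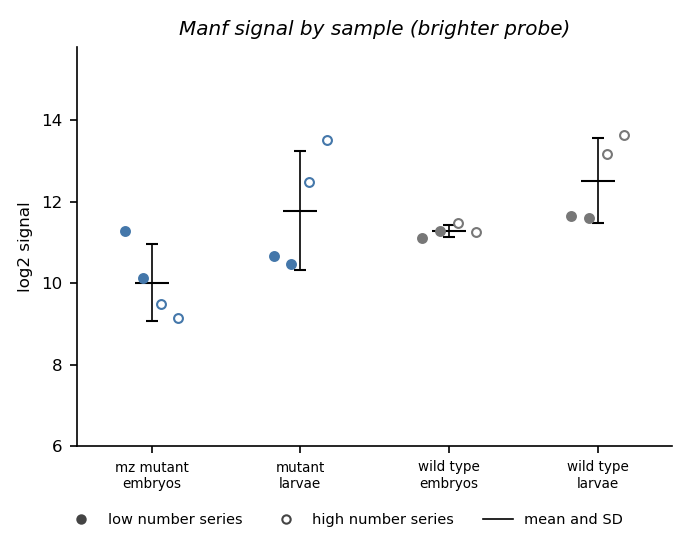
Manf log2 signal (brighter probe, y axis) in each of the 16 samples by group (x axis), with group mean and SD; filled points are the low and open points the high number series. Mz mutant embryo 1 sits at 11.29, beside the wild type embryos at 11.10 to 11.48, and larvae of both genotypes split by series.

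Between mz mutant embryos and mutant larvae, 7047 of 45220 probes passed the test (15.6%), 3659 higher (8.09%) and 3388 lower (7.49%) in the larvae. The test was limma's moderated statistic over the 16 samples, with p-values adjusted by the Benjamini-Hochberg method over all probes, and a probe was called under an adjusted p of 0.01. With each gene read at its brightest probe, 2697 of 12798 genes were called (21.1%), 1544 higher (12.1%) and 1153 lower (9.01%). In 2595 of the called genes the 4 larvae and the 4 embryos did not overlap, which was so for 29.5% of all genes. A rise of at least 2 on the log2 scale was called for 276 genes and a fall of that size for 237. At a size of at least 5 these numbers were 29 and 12.

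Without mz mutant embryo 1, 2726 genes were called and 2342 of the 2697 kept their call (86.8%). All 2697 had the same sign of change in the low and in the high number series taken alone, although the same samples had made the calls. Within the low series 856 genes were called and within the high series 3698, so the number of calls differed between the series. Over all genes, the changes in both series correlated at r = 0.76.

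Wild type animals went through the same stages with 7041 probes called, and 2832 genes (22.1%). No sample is shared with the mutant comparison. Of the 2697 genes called in mutants, 1825 were called in the same direction in wild type, which is 67.7% of the mutant and 64.4% of the wild type calls. These were 1160 rises and 665 falls. A further 16 genes were called in opposite directions. The sign was the same for 2586 of the mutant calls (95.9%), and the stage changes of mutants and wild type correlated at r = 0.83 over 12798 genes, which are not independent replicates. Another 856 genes were called in mutants only by threshold, but the difference between the stage changes passed its own test for just 34 of them. That test, the interaction of genotype and stage, called 93 genes (0.727%), 32 with a more positive change in mutants (0.25%) and 61 with a more negative one (0.477%). Over probes it called 202 (0.447%), and 823 without mz mutant embryo 1, when all 93 genes kept their call.

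**Figure D2:**
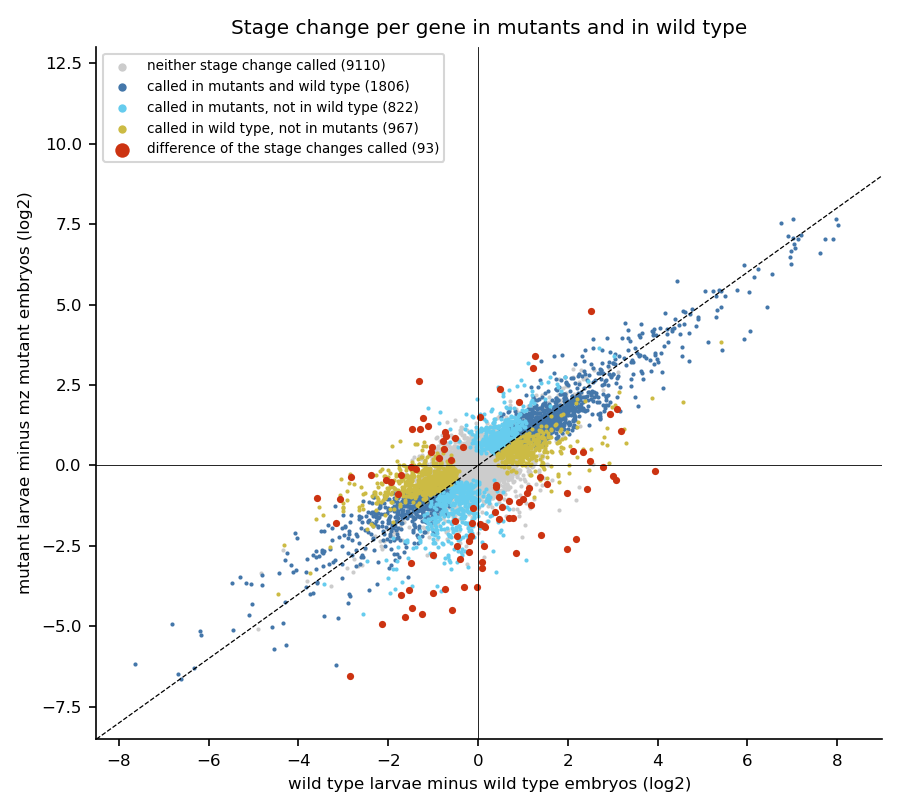
Log2 stage change of each gene at its brightest probe in wild type (x axis) and in mutants (y axis), coloured by which tests passed an adjusted p of 0.01; the dashed line marks equal change. Most called genes lie along the line, with r = 0.83 over all 12798 genes, and the 93 red points are the genes whose stage changes differ.

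The largest rises belonged to genes that read near the floor of the scale in all mz mutant embryos and near the top of the scale in all mutant larvae. CG34202 read 6.57, 6.84, 6.81 and 6.90 in the embryos and 13.83, 14.21, 14.81 and 14.90 in the larvae, a rise of 7.66 ± 0.26 (SE, adjusted p = 7.96e-11). For Alp8, an alkaline phosphatase, the values were 7.48, 7.51, 7.23 and 7.27 against 14.73, 14.94, 15.02 and 14.90. CG3598 stood at 7.11, 7.11, 6.73 and 7.01 in embryos and 14.78, 14.22, 14.39 and 14.47 in larvae, a rise of 7.48 ± 0.13 (SE, adjusted p = 9.82e-14). Embryos and larvae were far apart in each of these genes, which were chosen as the largest rises among called genes without overlap. Larvae 65 and 66 reached their ceiling for Alp8 and larva 66 for CG34202, so that 7.52 and 7.66 are lower limits.

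The other 12 of the 15 largest rises were CG11300 (7.66), CG15225 (7.16), CG32793 (7.14), CG14421 (7.06), CG14424 (7.04), CG14420 (7.04), CG14423 (7.02), CG13438 (6.87), CG4116 (6.74), CG14418 (6.66), CG13983 (6.60) and CG34201 (6.48). Their adjusted p-values ranged from 4.65e-12 to 1.67e-08. None has a name beyond its identifier in the annotation used. All 15 were also called higher in wild type larvae, by 6.76 to 8.02, and for none did the stage changes differ by the interaction test. For CG11300 1 of 2 further probes gave only 0.45, and for CG14418 the second probe gave 3.62. Mutant larvae reached their ceiling for CG11300, CG32793 and CG14421, so these rises too are lower limits.

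Several of these genes are neighbours in the RefSeq gene order. On the X chromosome, CG14424, CG32793, CG3598, CG14420, CG14421 and CG14423 lie in 1 short run of protein coding genes, together with CG14422, which rose by 4.07 (adjusted p = 1.40e-09). Between them lies CG3592, which was not called, at 6.96 in embryos and 6.90 in larvae. The next gene on one side, CG17959, rose by 3.44, while rst, a cell adhesion gene a little further on, changed by -0.03 (adjusted p = 0.922). On chromosome 2R, CG13438, CG34201 and CG34202 lie close together, with dpr1 (-0.52, adjusted p = 0.198) and CG13442 (-0.15, adjusted p = 0.725), neither of them called, between them. The neighbours were looked up after the values had been seen.

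Among the largest falls, EAChm, named as an enhancer of the acetyltransferase Chameau, read 14.98, 15.06, 14.70 and 14.42 in the mz mutant embryos and 7.38, 7.90, 8.73 and 8.64 in the larvae, a change of -6.63 ± 0.35 (SE, adjusted p = 1.04e-08). Another, nur, went from 15.01, 12.88, 14.21 and 14.06 to 7.55, 7.81, 7.69 and 7.91. The cuticle protein gene Acp65Aa stood at 13.27, 12.03, 12.75 and 12.99 in embryos and at 7.14, 7.44, 6.85 and 6.86 in larvae, where it read near 7. All larvae were far below all embryos for these genes, which were likewise chosen among called genes without overlap.

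Of the 15 largest falls, 3 were cuticle protein genes of the chitin-binding Cpr family: Acp65Aa (-5.69), Cpr47Ea (-5.59) and Cpr92F (-4.92). A further 2 encode serine proteases, Try29F (-5.13) and Ser7 (-4.92), and GstD5 (-5.02) is a glutathione S-transferase. The remaining genes were CG16772 (-6.53), CG33160 (-6.47), CG4757 (-6.21), CG13738 (-6.17), CG14565 (-5.28), CG4000 (-5.16) and CG34281 (-4.89). All 15 fell in wild type as well. A difference between the stage changes was called for CG16772 and Ser7, at -3.69 (adjusted p = 0.00963) and -2.78 (adjusted p = 0.00204). Larvae of both genotypes read near the floor in these genes, so the falls are lower limits, and the mz mutant embryos stood above the wild type embryos, at 13.67 against 10.22 and 12.02 against 9.16.

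Several of these genes stood higher in larva 4 than in the other larvae. CG4757 read 7.09, 11.48, 7.57 and 7.75 in the 4 larvae, CG14565 8.06, 12.88, 8.31 and 8.07 and CG34281 7.80, 13.19, 8.22 and 8.10. The embryos lay at 13.99 or more for all of them, so larva 4 stood between the embryos and the other larvae. Cpr47Ea (7.44, 11.04, 8.33 and 7.98) and ebony, the enzyme e that joins beta-alanine to dopamine in tanning (8.67, 10.90, 8.23 and 8.42), had the same order, and wild type larva 2 was the highest wild type larva for CG14565 (7.08, 10.02, 7.29 and 6.99), CG34281 (8.14, 11.14, 8.02 and 7.95) and e (8.57, 9.54, 8.31 and 8.44). The medians of the Cpr and the Tweedle cuticle lists were also highest in larva 4, at 10.30, 12.29, 10.63 and 10.85 and 12.48, 14.50, 12.12 and 12.51 over the 4 larvae.

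**Figure D3:**
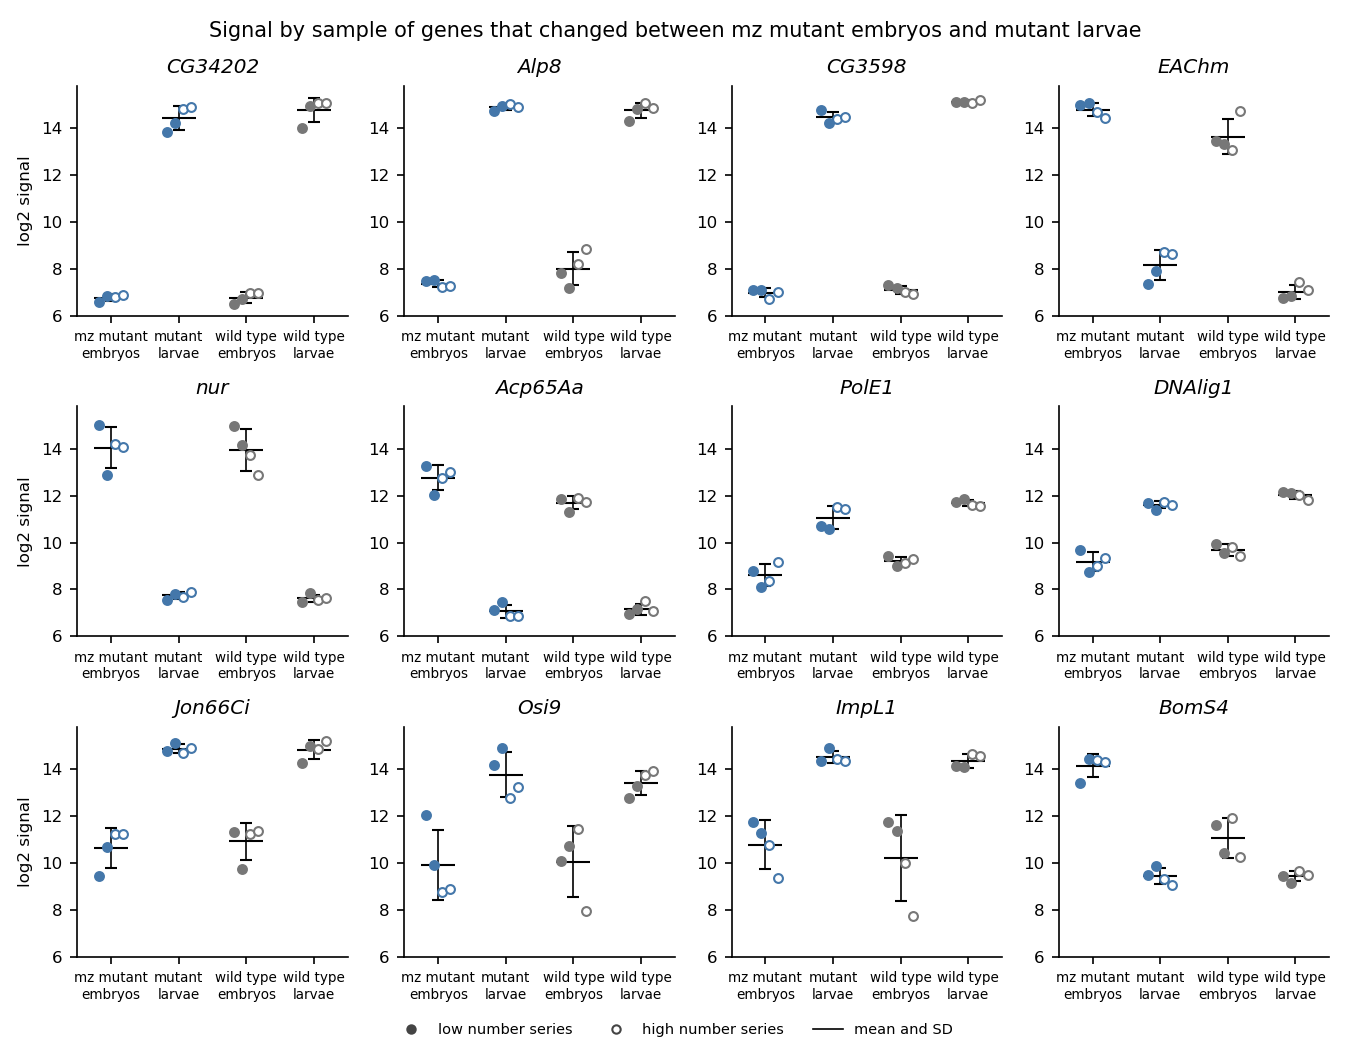
Log2 signal (y axis) of 12 genes in each of the 16 samples by group (x axis), with group mean and SD; filled points are the low and open points the high number series. Mz mutant embryos and mutant larvae do not overlap in any of the 12 genes, and wild type animals move the same way in each.

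DNA replication was the gene group with the most members called. Of 39 genes, 30 were higher in mutant larvae and 0 lower, beside 12.1% and 9.01% of all genes. The counts of the lists below are to be read against the same shares. The median change of the 39 was 1.57 against 0.04 over all genes. The median level of the list read 9.67, 9.19, 9.17 and 9.79 in the mz mutant embryos and 10.80, 10.64, 11.29 and 11.38 in the mutant larvae, so every larva stood above every embryo. PolE1, the catalytic subunit of DNA polymerase epsilon, went from 8.78, 8.11, 8.34 and 9.18 to 10.71, 10.59, 11.53 and 11.43, a rise of 2.46 ± 0.24 (SE, adjusted p = 4.23e-06). DNAlig1, the ligase that joins new strands, read 9.67, 8.73, 9.01 and 9.33 in embryos and 11.67, 11.40, 11.74 and 11.61 in larvae.

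Prim2 and PolA1, parts of the primase and polymerase alpha complex, rose by 2.08 and 2.06. All 30 rises were called in wild type too, where 34 members were higher and the median was 1.77. The change was smaller in mutants than in wild type for 33 of the 39 genes. The medians had this order within the low number series (1.21 and 1.89) but not within the high series (1.81 and 1.77). The difference was called for 1 of the 39 genes only. This was Orc1, a subunit of the origin recognition complex, picked out after its values were seen. It changed by 0.45 (adjusted p = 0.138) in mutants and by 2.13 (adjusted p = 3.18e-06) in wild type, a difference of -1.68 (adjusted p = 0.00995).

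Mitosis genes followed with 18 of 42 higher and 0 lower (median 0.65, wild type 0.74 with 19 higher). Within the low number series 5 were called, when 594 of all 12798 genes were called higher. In the fit of all 24 samples 1 was called, when 408 genes were called higher. The condensin subunits Cap-D2 and SMC2 rose by 1.69 and 1.50, Det, the fly survivin, by 1.55 and Sas-6, which builds the centriole, by 1.45. Single further probes of Cap-D2 and Det gave -0.08 and -0.16. Of 11 genes for histone variants and chromatin assembly, 5 rose, with 1.74 for Caf1-180, 1.14 for Caf1-105 and 1.12 for Caf1-55, the chromatin assembly factor subunits, and 0.99 for the gene of the heterochromatin protein HP1a. For these genes too no difference between the stage changes was called in the main fit. Without mz mutant embryo 1 it was called for 1 mitosis gene.

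Genes for protein synthesis and turnover rose in smaller numbers. Of 30 aminoacyl tRNA synthetases, which charge tRNAs, 11 were higher and none lower (median 0.37), led by the mitochondrial enzymes TrpRS-m (1.91), ProRS-m (1.90), GluRS-m (1.88) and IleRS-m (1.62). In wild type 15 were higher, with a median of 1.02. Of 42 proteasome genes 9 were higher, beside 12.1% of all genes. They included Prosalpha3 (1.44) of the core particle and Rpt2 (1.22) and Rpn3 (1.18) of the regulatory particle. Only 1 was lower, Prosbeta2R2 (-1.30). Wild type showed 21 higher and 1 lower. Within the low number series the proteasome medians were 0.35 in mutants and 1.00 in wild type, and within the high series 0.64 and 0.80. Those of the synthetases were 0.12 and 0.98 within the low series and 0.82 and 1.17 within the high series. For no member of either list did the difference between the stage changes pass its test in the main fit. Without mz mutant embryo 1 it passed for 2 of the synthetases, both with the lower change in mutants, and for 1 when the number series was a block.

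Mitochondrial ribosomal protein genes had a change above 0 in 71 of 74 cases and a median of 0.64, against 0.04 over all genes. Only 4 were called higher, mRpS34 (1.26), mRpL15 (1.19), mRpL11 (1.12) and mRpL49 (1.08), and 1 lower. With the number series as a block, 30 were called higher, when 2043 of all 12798 genes were. Without mz mutant embryo 1 there were 8. For 41 cytosolic ribosomal proteins, with a median level of 14.52 in mutant larvae, the median change was -0.13, with RpS19b higher (1.34) and RpS5b lower (-1.13). The median of this list equalled the ceiling in mz mutant embryo 88 (15.14), in mutant larvae 65 (15.02) and 66 (14.90) and in wild type embryo 83 (14.75). A change of members at the ceiling could therefore not be read in full. Ribosome biogenesis genes gave 0 higher and 1 lower of 25, the latter mbm (-1.11), which is known from neuroblast growth.

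Manf acts in the endoplasmic reticulum, and genes of that compartment were followed for this reason. Of 24 ER chaperones and folding enzymes, 5 rose and none fell (median 0.35, wild type 0.73 with 6 higher). They included wbl, a disulphide isomerase relative (2.03), Uggt, the sensor that returns misfolded glycoproteins to folding (1.87), Creld (1.84) and prtp (0.99). Without mz mutant embryo 1 this count fell to 3 higher and 1 lower, and the median to 0.20. A difference from wild type was then called for 1 member, and for none in the main fit. Translocon, COPI and COPII genes, for entry into and traffic from the ER, gave 2 of 30 higher, loj (0.99) and betaCOP (0.81), against 9 in wild type. With the number series as a block these counts were 6 and 11, when 2043 of all 12798 genes were called higher in mutants. Here the change was below that of wild type in 26 of 30 genes. The difference was called for none in the main fit and for 1 without mz mutant embryo 1.

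In the unfolded protein response list of 12, S2P (0.97), which cleaves membrane-bound transcription factors, and Gcn2 (0.93), a kinase that restrains translation, rose. Lower were 3 genes, with the largest falls in trbl (-1.48), a tribbles kinase relative, and puc (-1.11), a phosphatase of JNK signalling. Without mz mutant embryo 1, 5 were lower. The difference from wild type, called for none in the main fit, was then called for 2, both with the lower change in mutants. A second S2P probe gave -0.25. The 5 small heat shock proteins had a median of -1.17 in mutants and 0.69 in wild type, but no member was called in either. Within the low number series the medians were -1.13 and -0.23, and within the high series -0.67 and 0.95. Hsp26 read 14.32, 14.80, 14.42 and 14.90 in the mz mutant embryos and 12.22, 13.32, 14.08 and 14.15 in the mutant larvae, with larvae 65 and 66 nearly at the embryos' level, and l(2)efl changed by -0.02 (adjusted p = 0.954). Of 18 Hsp70 and cytosolic chaperones 2 fell, Hsc70-1 (-1.22) and Hsf (-1.14), the heat shock transcription factor.

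Genes of feeding were followed through the enzymes and linings of the gut. Of 22 maltases, amylases and mannosidases, which break down dietary and lysosomal sugars, 9 rose and 1 fell in the mutants (median 0.91), while 3 rose and 7 fell in wild type (median -0.41). LManIII, a mannosidase, read 7.47, 7.89, 8.39 and 7.20 in mz mutant embryos and 11.29, 10.45, 11.17 and 11.01 in mutant larvae, a rise of 3.24 ± 0.30 (SE, adjusted p = 2.48e-06). For tobi, a glucosidase known as a target of brain insulin, the values were 9.48, 10.89, 9.87 and 9.80 and 12.45, 12.50, 12.31 and 12.29. The larvae of both genes lay above all embryos.

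Mal-A7 and Mal-A8, members of the maltase cluster, rose by 2.36 and 1.66, against 0.69 (adjusted p = 0.152) and -0.85 (adjusted p = 0.0752) in wild type. The mutant change was above that of wild type in 19 of 22 genes, and the difference was called for Mal-A6 alone, described further on. It was called for 5 without mz mutant embryo 1 and for 3 when the number series was a block. Similar sequences within the maltase, trypsin and lysozyme clusters may share probes, so single members are uncertain.

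Jonah and trypsin proteases, secreted into the gut, were already bright in the embryos, with a median level of 13.77 in mz mutants. Of 34 genes 6 rose and 3 fell (median 0.58, wild type -0.23 with 3 and 7). Over all genes 12.1% were called higher and 9.01% lower in mutants. Within the high number series the medians were 0.25 in mutants and 0.16 in wild type, against 0.92 and -0.67 within the low series. Jon66Ci went from 9.43, 10.70, 11.22 and 11.22 to 14.76, 15.12, 14.70 and 14.90, a rise of 4.23 ± 0.40 (SE, adjusted p = 3.12e-06), and Jon65Aii from 10.09, 10.85, 10.94 and 12.15 to 14.91, 15.12, 13.30 and 13.08. Try29F and Ser7 moved the other way, as given above.

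Of 25 gut lipases and peritrophins, which act in the gut lumen or line it, 5 rose and 1 fell. The mucins Muc96D (4.63) and Muc68Ca (4.56), the mucin-related Mur89F (3.39) and Peritrophin-15b (2.86) led the rises, all of them called in wild type too. Among 7 lysozymes only LysX was called, going from 9.58, 9.45, 10.01 and 9.42 in mz mutant embryos to 6.79, 6.87, 6.88 and 6.80 in the larvae. Its change was -2.78 in mutants and -1.01 in wild type. Larvae of both genotypes read near the floor (6.83 and 6.84), so both are lower limits, and the embryos read 9.62 and 7.85. The difference was called, at -1.77 (adjusted p = 7.37e-04). Sugar transporters gave 5 higher and 1 lower of 23, with rises of 3.44 for CG7882, 1.83 for CG33281 and 1.66 for CG15408 while CG4607 fell (-2.18).

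Metabolic genes beyond the gut lumen were called in differing shares, beside 12.1% higher and 9.01% lower over all genes. Of 22 genes of amino acid breakdown 7 rose and none fell (median 0.62, wild type 0.26). Tat, which starts tyrosine breakdown, read 11.22, 10.45, 10.30 and 10.38 in embryos and 13.32, 13.17, 13.49 and 13.42 in larvae, a rise of 2.76 ± 0.23 (SE, adjusted p = 7.31e-07). GstZ1 and GstZ2, enzymes of a later step, rose by 2.11 and 1.39, and CG6638 by 1.34. The change of GstZ2 without mz mutant embryo 1 was 1.49, as large as before but not called (adjusted p = 0.0114).

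Fat storage and synthesis genes gave 4 higher and 1 lower of 21, near the 21.1% of all genes called either way. The perilipin Lsd-1 rose from 12.60, 11.90, 12.28 and 12.66 to 14.75, 14.39, 14.53 and 14.56, Mtp, which loads lipid onto lipoproteins, by 2.02, and the fatty acid synthases FASN3 and FASN2 by 1.72 and 1.72. Of 9 Npc genes for sterol transport 4 rose and none fell: Npc2c (1.93), Npc2g (1.62), Npc2f (1.33) and Npc2d (1.12). The change of Npc2f without mz mutant embryo 1 was 1.20, no longer called (adjusted p = 0.0179).

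Few genes of energy metabolism were called. Respiratory chain genes gave 4 higher of 75 (median 0.28), led by ND-B14 (1.24), and the TCA cycle 1 of 15, ScsbetaG (1.43). No member of the 12 glycolysis genes was called, and their brightest, Ald1 and Eno, changed by 0.33 (adjusted p = 0.334) and -0.02 (adjusted p = 0.946). V-ATPase subunits gave 1 higher, Vha14-2 (0.64), and 1 lower, Vha36-3 (-0.64), of 32.

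Genes that handle foreign compounds went both ways. Of 84 cytochrome P450s 10 rose and 11 fell, beside 12.1% higher and 9.01% lower over all genes. Cyp4d14 dropped from 13.54, 13.71, 14.29 and 13.36 to 8.96, 9.43, 9.68 and 9.84 and Cyp309a2 (-3.10) and Cyp6a14 (-2.78) fell as well. Cyp6g1, known from insecticide resistance, rose from 8.08, 8.22, 8.13 and 8.31 to 11.31, 11.28, 11.13 and 11.08, and its rise exceeded that of wild type by 1.78 ± 0.24 (SE, adjusted p = 0.0017). In both genes the mutant larvae lay apart from the embryos.

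UDP-glycosyltransferases were lower in 9 of 35 and higher in none, with Ugt37E1 (-3.68), Ugt37A1 (-2.76), Ugt35D1 (-2.66) and Ugt37C2 (-2.26) falling most. Wild type gave 12 lower. Glutathione S-transferases gave 4 higher and 4 lower of 35, with GstE2 at -1.62 beside the genes named above.

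Cuticle genes went both ways. Of 92 Cpr genes 10 rose and 13 fell (wild type 7 and 21), beside 12.1% higher and 9.01% lower over all genes. Changes ran from -5.69 to 5.43. Cpr30F marked the upper end, at 7.79, 7.18, 7.21 and 7.29 in embryos and 12.43, 14.25, 11.95 and 12.57 in larvae, a rise of 5.43 ± 0.39 (SE, adjusted p = 1.85e-07) that was 5.42 in wild type. None of the 25 Tweedle genes was called, and the brightest, TwdlN and TwdlK, changed by 0.13 (adjusted p = 0.886) and 0.31 (adjusted p = 0.763). Both of these genes were at the ceiling in mz mutant embryo 88 (15.14) and mutant larva 66 (14.90), so a change could be hidden there.

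The Osiris genes, a cluster of membrane proteins on chromosome 3R expressed in cuticle-forming cells, had the highest median change of all lists examined in mutants, 1.82, and 1.81 in wild type. Only 6 of 24 were called higher and none lower, and the embryos varied widely. Osi9 read 12.03, 9.93, 8.78 and 8.9 in the mz mutant embryos and 14.17, 14.90, 12.76 and 13.24 in the larvae, a rise of 3.86 ± 0.77 (SE, adjusted p = 0.00186), with embryo 1 the highest. Osi16 went from 8.35, 7.12, 7.26 and 7.07 to 11.30, 10.90, 10.20 and 10.16, and Osi19 and Osi12 rose by 3.66 and 2.0. Mz mutant embryo 1 was the highest embryo for all of these, and without it 10 were called higher and 1 lower.

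Among 31 genes of chitin synthesis and modification, 3 rose and 5 fell, beside 12.1% higher and 9.01% lower over all genes. The chitinase Cht10 (3.04) and the deacetylase Cda9 (1.54) rose, while reb (-2.41) and the chitin synthase kkv (-2.08) fell. A second Cht10 probe gave only 0.29. Of 22 tanning and dopamine synthesis genes, 2 rose, among them yellow-g2 (1.37), and e (-3.98), yellow-d2 (-1.76) and Pu (-1.74), the first enzyme of the cofactor pathway for dopamine synthesis, fell. For yellow-d2 the change without mz mutant embryo 1 was -1.35, no longer called (adjusted p = 0.0143). Apical matrix genes neo (3.44), tyn (2.19) and sha (1.82), which shape the cell surface under the cuticle, rose as they did in wild type, and qsm fell (-1.08). The change of qsm without mz mutant embryo 1 was -0.96, no longer called (adjusted p = 0.0181).

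Some genes rose at both ends of the ecdysone pathway, beside 12.1% of all genes called higher, while the list medians were 0.24 for synthesis and 0.21 for response. Of 12 synthesis genes 3 rose and none fell: sad (2.54), spok (2.46) and shd (1.61), all P450 enzymes that make the hormone. For spok the samples read 9.55, 8.46, 8.51 and 8.20 and 11.44, 11.14, 11.00 and 10.97, without overlap. Of 20 response genes 6 rose, all of them in wild type too, where 8 did. ImpL1, an ecdysone-inducible gene, went from 11.74, 11.29, 10.75 and 9.36 to 14.36, 14.88, 14.43 and 14.35. Blimp-1 (2.91), ImpE1 (2.45) and Hr4 (2.22), which act downstream of the hormone, followed.

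Immune effector genes showed the largest downward median. In the list of bomanins, Turandots and Listericin, secreted peptides induced by infection and stress, 9 of 15 fell and none rose, with a median of -3.01 against -1.63 in wild type, where 6 fell. The median level of the list read 12.58, 14.38, 14.00 and 13.84 in the mz mutant embryos and 9.64, 10.90, 8.94 and 8.74 in the larvae. BomS4 stood at 13.41, 14.45, 14.38 and 14.32 in mz mutant embryos, 9.50, 9.88, 9.32 and 9.06 in mutant larvae, 11.63, 10.43, 11.93 and 10.26 in wild type embryos and 9.45, 9.15, 9.65 and 9.47 in wild type larvae. Larvae of both genotypes thus overlapped, and the mz mutant embryos lay above the wild type embryos.

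The change of BomS4 was -4.70 ± 0.35 (SE, adjusted p = 2.64e-07), and it differed from that of wild type by -3.07 (adjusted p = 0.00629). BomBc3 read 13.52, 14.92, 14.09 and 14.65 and 9.64, 11.23, 8.81 and 8.72, a change of -4.69 beside -3.43 in wild type. BomT3 (-4.60) and Listericin (-3.90) fell as well, although a second probe of Listericin gave 0.06 and another of BomBc3 gave -0.11. The second member whose stage change differed was the Turandot gene TotC, named after its values were seen, with -3.85 in mutants, -1.55 in wild type and a difference of -2.31 (adjusted p = 0.00493).

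Antimicrobial peptides proper went both ways: Drsl4 (-2.41) and Drsl5 (-1.73), relatives of drosomycin, fell, and DptB, a diptericin (2.29), and AttD, an attacin (1.85), rose among 3 called higher of 12. The change of Drsl5 differed from that of wild type by -1.23 (adjusted p = 0.00592). The change of AttD without mz mutant embryo 1 was 1.99, as large as before but not called (adjusted p = 0.0113).

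Of 30 genes of immune recognition and signalling 12 fell and 4 rose in mutants, against 3 and 4 in wild type. All 4 genes that rose did so in both. They include PGRP-SC1b, PGRP-SC1a and PGRP-SC2, amidases that degrade bacterial peptidoglycan in the gut. PGRP-SC1b went from 9.61, 9.67, 10.89 and 10.73 to 14.53, 14.33, 14.43 and 14.55, a rise of 4.23 ± 0.27 (SE, adjusted p = 6.05e-08), PGRP-SC1a rose by 3.99 and PGRP-SC2 by 2.59. The first and second are near copies, so their probes may share signal. GNBP2, a recognition protein, fell too (-2.20).

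For 3 members the stage change differed from wild type, named here after their values were seen. They act in Toll or JAK/STAT signalling: spz, the Toll ligand (-1.65 in mutants, 0.69 in wild type, adjusted p = 0.00632 for the difference), psh, a protease upstream of it (-1.91 and 0.15, adjusted p = 0.00843), and upd1, a cytokine (-1.65 and 0.47, adjusted p = 0.00985). In each the mz mutant embryos had the highest group mean, at 14.15, 11.91 and 9.96, against 11.48, 10.23 and 8.13 in wild type embryos.

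Haemocyte genes gave 7 lower and none higher of 26. Pvf2, a ligand of the PDGF and VEGF receptor relative Pvr, fell from 11.70, 14.92, 13.64 and 13.53 to 8.56, 8.95, 9.34 and 8.97, and Pvf1, its relative, fell too (-2.40). NimC2 (-2.15), a phagocytosis receptor relative, and lz (-1.89), the transcription factor of crystal cells, fell too. Without mz mutant embryo 1 this list gave 9 lower and 2 higher. Of 29 serpins 3 rose, led by Spn100A (3.41), and 6 fell, led by Spn43Aa (-2.83), Spn43Ad (-2.79) and Spn47C (-2.53).

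Cell death genes fell in 6 of 13 cases and rose in none, beside 7 and 0 in wild type. The caspase Damm read 12.10, 12.32, 12.88 and 12.23 in mz mutant embryos and 10.41, 10.27, 10.23 and 10.13 in the larvae, a change of -2.12 ± 0.17 (SE, adjusted p = 6.86e-07), beside -2.10 in wild type. The death inducer skl (-1.77), the Bcl-2 relative Buffy (-1.74) and the initiator caspase Dronc (-1.46) also fell. A second Buffy probe gave -0.24.

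**Figure D4:**
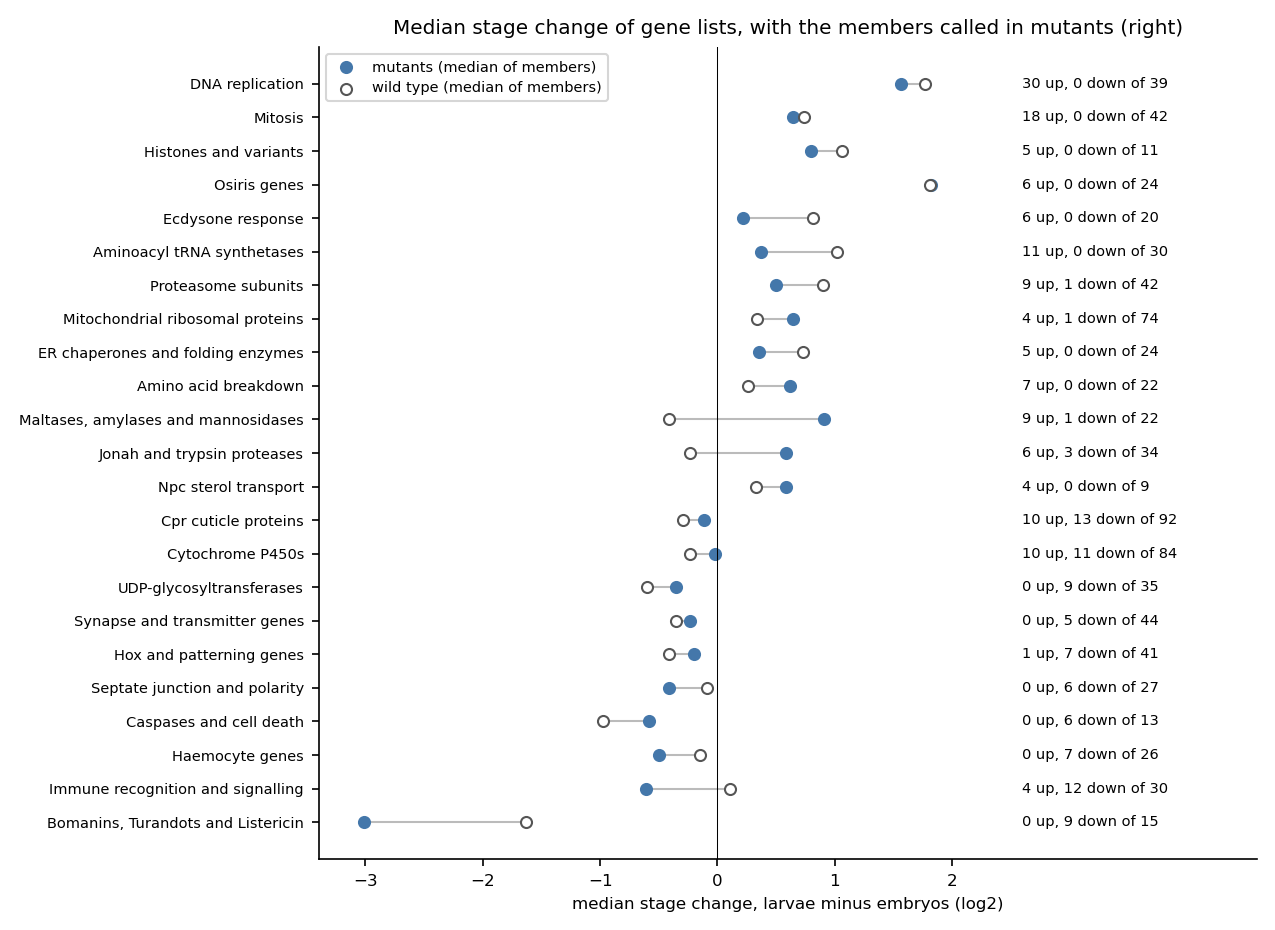
Median log2 stage change (x axis) of the members of 23 gene lists (y axis) in mutants (filled) and wild type (open), with the number of members called higher and lower in mutants at the right. DNA replication and Osiris genes have medians of 1.57 and 1.82 in mutants, and the bomanin list -3.01; the medians of both sugar-digesting enzymes and gut proteases lie on opposite sides of 0 in mutants and wild type, which for the gut proteases did not hold within the high number series.

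Lists of the nervous system and of embryonic pattern are to be read against the 9.01% of all genes called lower. In the main fit the synapse and axon guidance lists lay near that share. The Hox and patterning list and the neuroblast and Notch list lay above it. Of 44 synapse and transmitter genes 5 fell and none rose, all of them also in wild type: the dopamine transporter DAT (-1.53), the potassium channel Shab (-1.24), the glutamate receptor subunit GluRIIA (-1.15) and the acetylcholine receptor subunit nAChRbeta1 (-0.95) led them. Axon guidance genes gave 2 lower of 31, comm (-1.42) and drl (-1.25). With the number series as a block 7 were lower, when 1495 of all 12798 genes were called lower. For Hox and patterning genes 7 of 41 fell and 1 rose. Their largest falls were in the transcription factors sna (-1.51), nub (-1.07) and tsh (-0.76) and the signal hh (-0.80).

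Neuroblast and Notch genes fell in 5 of 22. The gene insc, which orients neuroblast division, fell in mutants (-1.82) against 0.05 in wild type, a called difference of -1.87 (adjusted p = 0.00833). The proneural gene ac (-1.78) and the neuronal factors nerfin-1 (-1.02) and pros (-0.83) followed. With mz mutant embryo 1 left out pros kept its size, at -0.84, but not its call (adjusted p = 0.0121). Of the neuropeptides, Nplp4 rose from 9.85, 10.86, 10.84 and 11.69 to 14.92, 15.05, 14.55 and 14.58 and the insulin-like peptide Ilp5 by 1.26, while CCHa1 (-2.53) and Burs (-1.51), a hormone of cuticle tanning, fell. In all 3 of 34 rose and 2 fell.

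Septate junction and polarity genes fell in 6 of 27 and rose in none, with vari (-1.67), crb (-1.34), baz (-1.13) and Nrx-IV (-1.01) leading. In wild type 2 fell. A difference between the genotypes was called for none in the main fit and for 1 without mz mutant embryo 1. Muscle sarcomere genes changed in 1 of 23, TpnC41C (-1.32). Odorant binding proteins and chemoreceptors, mostly near the floor with a median level of 7.16 in mutant larvae, gave 8 higher and 14 lower of 222. Obp56a rose by 3.23, and Obp99d (-2.60) and Obp50e (-2.24) fell.

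Mz mutant embryo 1 stood apart in Gr63a, a gene of the carbon dioxide receptor. Gr63a read 7.28, 11.56, 11.01 and 10.95 in the mz mutant embryos, 7.21, 7.20, 8.01 and 7.29 in the mutant larvae and 8.40, 7.43, 7.70 and 7.33 in the wild type embryos. This embryo lay near the wild type embryos and the other 3 mz mutants far above them. Similar order held for Ugt37E1, at 8.24, 11.74, 11.35 and 11.52 in the mz mutant embryos.

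The remaining lists are to be read against the 21.1% of all genes called. Juvenile hormone and haemolymph binding proteins gave 1 higher, Jhbp2 (3.97), and 4 lower of 21, among them Jhbp6 (-1.29), Jhbp13 (-1.04) and jhamt (-0.76), which makes the hormone. Endocytosis genes gave 2 lower of 26, the ESCRT subunits shrb (-1.21) and Vps24 (-0.83), and actin assembly 1 lower of 19, Arpc2 (-1.50). In growth signalling S6k (-1.34), a kinase downstream of TOR, and the amino acid transporter mnd (-1.04) fell and gig (0.62), the fly Tsc2, rose, of 15 genes. Without mz mutant embryo 1 the calls of Vha36-3 (-0.60), Jhbp13 (-0.76), prtp (0.95) and Vps24 (-0.81) were lost, with adjusted p-values from 0.0131 to 0.024.

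Markers of other stages and tissues were checked as well. The 12 genes for late larval glue, fat body storage and adult yolk proteins had a median level of 7.38 in mz mutant embryos and 7.04 in mutant larvae, near the floor, and 2 glue genes fell, Sgs7 (-1.64) and Sgs8 (-1.20). A second probe of Sgs7 gave -0.10. Chorion and vitelline membrane genes lay at 7.07 in mutant larvae and 1 of 14 rose, Cp15 (2.15; second probe 0.31). Testis genes lay at 7.07, with 2 of 18 lower, betaTub85D (-0.98) and sa (-0.73), the latter at -0.57 and not called without mz mutant embryo 1 (adjusted p = 0.0118). Of 20 germline genes qin rose (0.70) and pgc fell (-2.89), from a mean of 9.98 in the mz mutant embryos to 7.09 in the larvae.

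Stage changes that went opposite ways in mutants and wild type stand out among the 93 genes with a called difference. The largest positive difference was in mag, the gut lipase magro. It read 9.41, 8.39, 8.30 and 8.63 in mz mutant embryos and 10.39, 11.25, 11.86 and 11.76 in mutant larvae, against 9.83, 9.81, 9.69 and 10.18 in wild type embryos and 8.17, 8.22, 9.15 and 8.70 in wild type larvae. It thus rose by 2.63 in mutants and changed by -1.32 in wild type, a difference of 3.95 ± 0.46 (SE, adjusted p = 7.16e-04). All mutant larvae lay above all samples of the other groups.

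Npc2d, a sterol binding protein, crossed over in the same way. Its samples read 12.17, 10.77, 11.83 and 11.60 and 13.03, 12.51, 12.81 and 12.51 in mutants and 12.83, 13.25, 13.65 and 13.34 and 11.56, 11.82, 11.94 and 11.85 in wild type. The difference was 2.59 ± 0.36 (SE, adjusted p = 0.00204). The P450 gene Cyp28d2 stood at 11.96, 12.29, 11.96 and 12.08 and 13.20, 13.20, 13.38 and 13.03 in mutants, and at 11.97, 12.69, 12.03 and 12.41 and 11.00, 10.86, 10.98 and 11.07 in wild type, so the embryos overlapped and the larvae parted.

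Mal-A6 behaved alike, at 13.54, 13.45, 12.67 and 12.79 in mutant larvae and 11.08, 11.02, 11.18 and 11.22 in wild type larvae, with changes of 1.24 and -1.12. CG34026 gave 1.49 and -1.23. For CG17636 (-1.01 and -3.59) and CG32091 (-0.36 and -2.84) wild type fell far and mutants did not pass the test. CG10154 rose in both, by 4.79 and 2.52, from 9.74, 9.24, 9.24 and 9.43 in mz mutant embryos and 11.74, 11.05, 10.84 and 11.09 in wild type embryos.

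The 8 largest negative differences included CG33460, CG33459 and CG33461, which carry neighbouring identifiers, and the first and second were the largest. CG33460 read 11.69, 11.33, 11.80 and 12.19 in mz mutant embryos, 8.80, 9.38, 9.47 and 9.02 in mutant larvae, 8.61, 8.78, 8.51 and 8.33 in wild type embryos and 10.59, 10.69, 10.47 and 10.39 in wild type larvae. It changed by -2.59 in mutants and rose by 1.98 in wild type, a difference of -4.56 ± 0.26 (SE, adjusted p = 1.52e-06). CG33459 stood at 12.75, 12.61, 12.76 and 12.79 and 10.03, 10.97, 10.33 and 10.41 in mutants and at 10.50, 10.47, 10.28 and 9.59 and 12.45, 12.44, 12.39 and 12.29 in wild type. In both genes the mz mutant embryos lay above the wild type embryos and the mutant larvae below the wild type larvae, without overlap.

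CG33461 gave -2.15 and 1.40. CG18477 was not called in mutants, at -0.16 (adjusted p = 0.852), and rose by 3.94 in wild type, whose embryos read 7.38, 7.48, 7.66 and 7.67 against 8.86, 11.27, 11.04 and 10.48 in the mz mutants. CG3117 (-3.79 and -0.02) and CG6023 (-2.72 and 0.84) fell in mutants alone by threshold, with called differences of -3.77 and -3.56. Pvf2 changed by -4.49 in mutants and by -0.59 (adjusted p = 0.432) in wild type, whose embryos, at 9.44, 10.01, 9.19 and 9.15, were already near the larval level.

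Dye and genotype were not balanced in this comparison, since wild type larvae were all labelled with Cy3. With dye as a covariate the interaction called 192 probes, beside 202 without it. In that fit the step from Cy5 to Cy3 is set by wild type embryo 1 alone, since no mutant was labelled with Cy3. Dye was balanced between the mutant stages, so an additive dye effect cancels in their change. A dye effect that differs between genotypes was not tested. The Alexa dye occurred only in mutants here, and in wild type only embryo 1 (Cy5) was not labelled with Cy3. Within the low number series alone, 2 samples a group, the interaction called 0 probes by limma (4411 at an unadjusted p under 0.05), and within the high series 1075.

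**Figure D5:**
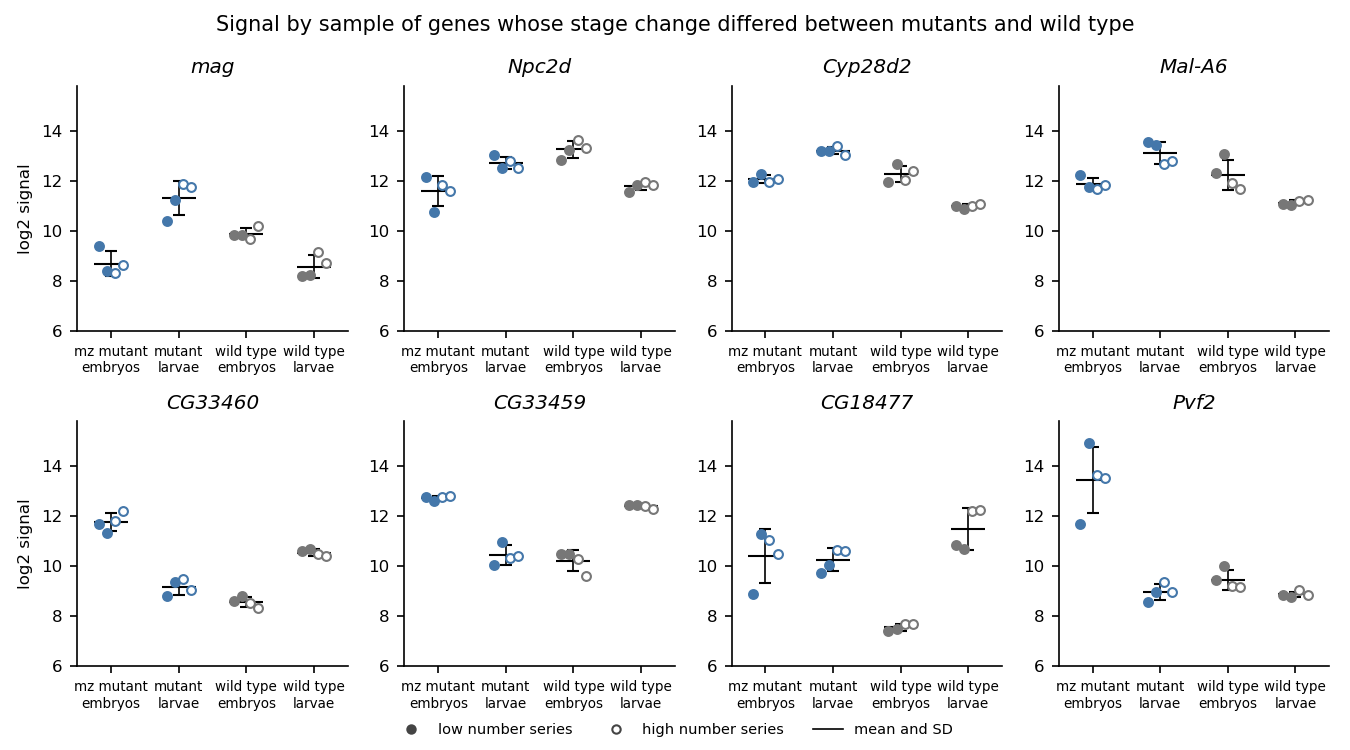
Log2 signal (y axis) of 8 genes with a called difference between the stage changes, in each of the 16 samples by group (x axis), with group mean and SD; filled points are the low and open points the high number series. In the upper row mutant larvae lie above mz mutant embryos and wild type larvae below wild type embryos; in the lower row CG33460 and CG33459 cross the other way.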

How the data were processed

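RNA of whole animals was hybridised to Agilent 4x44K arrays. The authors deposited log2 values per probe for 24 samples. Per the study's methods these are median spot intensities read with GenePix Pro, normalised and tested with limma; every sample has nearly the same distribution of values. Spot backgrounds and detection flags were not used here, so depth is given only by the number of samples. Samples were grouped by label; the methods name 3 independent samples per genotype and the labels list 4. Separate labelled samples were taken as replicates; the labels do not name a culture for each, so the error terms may in part be technical.

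A linear model with 4 groups was fitted to 16 samples with limma 3.58.1 in R 4.3.3 (lmFit, eBayes) and gave the stage change in mutants, in wild type and their difference. P-values were adjusted over 45220 probes by the Benjamini-Hochberg method and called under 0.01. Of the probes, 29869 have 1 gene in the annotation and 15351 none, giving 12798 genes, 10276 with 2 or more probes. A gene was read at its brightest probe over the 16 samples, and 12240 symbols were updated by identifier. RefSeq gave the gene order; no sequence or genome was used.

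Named genes were the 15 largest called rises and falls without overlap, up to 4 called members with the largest change of each of 58 lists (or the 2 brightest), the 8 largest called differences each way, and Manf. Members and lists were chosen with earlier results of these data known. A few genes named outside this rule are marked. The fit was tested on simulated data.

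Alternatives were the number series as a block or taken alone, the sample number as a random block, dye as a covariate, 24 or 22 samples, each genotype alone, quantile or median scaling, array weights, dim probes left out, other thresholds, the mean of all probes of a gene, and each sample left out. Replicate numbers are shared by the mutant groups only for number 4, whose deviations from the group means correlated at -0.08.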

Additional observations from a re-analysis of the deposited data

Results flagged for a closer look

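In groups of 4 samples, 1 sample can stand apart by a gap that takes most of the range. Among 448 sets of 4 values (the named genes in mz mutant embryos and in mutant larvae) this was so for 33; chance alone is expected to give about 1 in 20. Mutant larva 2 was high for CG13983 at 14.66 (others up to 13.56), CG34201 at 14.18 (others up to 13.37), sha at 9.76 (others up to 8.89), Rpn3 at 14.95 (others up to 14.43) and gig at 12.26 (others up to 12.10) and was low for CG14424 at 13.78 (others from 14.30) and S2P at 12.55 (others from 12.74). Mz mutant embryo 4 was high for vari at 14.96 (others up to 14.61) and was low for CG14420 at 6.60 (others from 6.85) and Prosbeta2R2 at 8.04 (others from 8.72). Mutant larva 4 was high for CG4757 at 11.48 (others up to 7.75), CG14565 at 12.88 (others up to 8.31), CG34281 at 13.19 (others up to 8.22), e at 10.90 (others up to 8.67), ImpL1 at 14.88 (others up to 14.43), Obp50e at 10.11 (others up to 9.12) and Buffy at 11.06 (others up to 10.26) and was low for Cht10 at 13.41 (others from 14.19), ND-B14 at 12.61 (others from 13.23) and Npc2g at 13.72 (others from 14.45). Mz mutant embryo 1 was high for Osi16 at 8.35 (others up to 7.26), Osi12 at 8.45 (others up to 7.58), Tat at 11.22 (others up to 10.45) and CG6638 at 12.71 (others up to 12.14) and was low for CG15408 at 8.69 (others from 9.57), Ugt37E1 at 8.24 (others from 11.35), Gr63a at 7.28 (others from 10.95), BomS4 at 13.41 (others from 14.32) and PGRP-SC2 at 11.14 (others from 12.46). Mutant larva 66 was low for sa at 7.08 (others from 7.30) and jhamt at 9.89 (others from 10.12). Mutant larva 65 was high for Vha14-2 at 7.97 (others up to 7.68) and Gr63a at 8.01 (others up to 7.29).

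For 22 named genes the stage change differed between mutants and wild type by the interaction test at an adjusted p under 0.01. More negative in mutants were CG33460 (-4.56), CG33459 (-4.48), CG18477 (-4.10), Pvf2 (-3.90), CG3117 (-3.77), CG16772 (-3.69), CG6023 (-3.56), CG33461 (-3.55), BomS4 (-3.07), Ser7 (-2.78), insc (-1.87), LysX (-1.77) and Drsl5 (-1.23). More positive were mag (3.95), CG34026 (2.72), Npc2d (2.59), CG17636 (2.58), CG32091 (2.48), Cyp28d2 (2.43), Mal-A6 (2.36), CG10154 (2.27) and Cyp6g1 (1.78).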

How the results depend on the processing

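The changes between mutant stages kept their direction for all 214 named genes with a called change in every alternative that measured them; leaving out dim probes removed ac and ND-B8, and of the others 211 kept their call. The call was kept for 214 with the number series as a block, 203 without mz mutant embryo 1, 192 with array weights, 198 within the high series, 95 within the low series and 106 in the fit of all 24 samples. Of 45220 probes, 7047 were called in the main fit. The number was 2156 within the low series, 10665 within the high series, 1575 with all 24 samples, 3866 for the 8 mutant samples alone, 11148 at an adjusted p under 0.05 and 4597 with a log2 change of at least 1. Leaving out each sample gave 5268 to 7039. For wild type, 7041 became 3917 within the low series, 1689 with all 24 samples, and 10693 at an adjusted p under 0.05, and 5671 to 6182 without each sample. The difference of the stage changes was the least settled: from 202 probes it went to 400 with the series as a block, 0 within the low and 1075 within the high series, 23 with all 24 and 310 with 22 samples, 466 with array weights and 618 at an adjusted p under 0.05. Without each sample it ranged from 93 (without wild type larva 1) to 823 (without mz mutant embryo 1); every other sample but mutant larva 4 (220) lowered it, to 143 or less. With the sample number as a replicate block, the mutant, wild type and difference counts were 7790, 8141 and 319, and all 214 named calls stayed. The numbers were not taken as pairs: deviations from the group means correlated at -0.08 for number 4, the only one in both mutant groups, 0.07 to 0.30 for number 1, 0.45 to 0.54 for number 2 and 0.43 for number 65 between the other groups. The within-series fits hold fewer samples; the cause of the other shifts was not tested.

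Some uncalled changes turned sign: Manf was -0.14, Eno 0.39 and l(2)efl 0.40 within the low series, Ald1 -0.15 within the high series, Eno 0.051 and l(2)efl 0.089 with array weights and l(2)efl 0.021 with the replicate block. Without single samples the change ranged from -0.25 to 0.40 for TwdlN, -0.28 to 0.69 for TwdlK, -0.12 to 0.10 for Eno, -0.16 to 0.098 for l(2)efl and -0.68 to 0.12 for CG18477. Quantile and median scaling changed no named call.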
